A study of Mus musculus with 6 samples.

Results

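The genes described here encode the SR proteins and the hnRNPs, the main families of trans-acting splicing regulators. They are the rows of the deposited gene count table whose symbol is Srsf followed by a number or begins with Hnrnp, has no pseudogene suffix and has a summed count of at least 100 over the 6 libraries. This gave 31 of 37411 genes, 11 SR genes and 20 hnRNP genes, and no matching row was lost to the count minimum. The cells were primary hippocampal neurons cultured from newborn (P0) CD-1 IGS mice and kept for 16 days in vitro. The 3 control libraries (1, 2 and 3) came from cells given DMSO, the solvent, and the 3 treated libraries (4, 5 and 6) from cells given 50 µM forskolin in an equal volume, in both cases for 30 min. Forskolin switches on adenylyl cyclase, the enzyme that makes cyclic AMP. The study asks which transcripts depend on cyclic AMP. The labels do not say whether the libraries of a group came from separate cultures, so the p-values measure the spread between these libraries, which may in part be technical.

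SR proteins bind short exonic sequences through RNA recognition motifs and recruit the spliceosome through a tail rich in arginine and serine, which SR protein kinases and CLK kinases phosphorylate. hnRNPs coat nascent transcripts and often oppose SR proteins by silencing exons, and several of them also carry, stabilise or translate mRNA in the cytoplasm. In neurons both families take part in the inclusion of exons of channels, receptors and adhesion molecules. Many of these genes also control their own amount by splicing in an exon that sends the transcript to nonsense-mediated decay, a change that a sum of reads per gene does not show.

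Total counts ran from 28342764 to 47548379 per library, and every member held at least 143 counts in each library. Of 8 genes known to respond to cyclic AMP or activity, 2 passed with edgeR (Fos and Fosb, both higher), and 7 had an unadjusted p-value under 0.05. Fos had 186, 109 and 101 CPM (counts per 1000000 reads of the library, with library sizes scaled by TMM factors) in libraries 1, 2 and 3, and 831, 902 and 448 CPM in libraries 4, 5 and 6. Nr4a1, another early gene, had 37.6, 19.3 and 16.6 CPM against 137, 138 and 61.6 CPM. The edgeR adjusted p-values were 0.0376 for Fos and 0.0653 for Nr4a1. In library 6 the response was uneven: Junb had 35.4 CPM there, below every control (46.2 to 117 CPM), against 278 and 232 CPM in libraries 4 and 5, and Egr1 (115 CPM) lay within the controls (83.4 to 123 CPM). Arc, in contrast, was highest in library 6 (206 CPM, against 163 and 195 CPM in libraries 4 and 5), and Npas4 (145 CPM) lay between libraries 4 and 5 (112 and 150 CPM). Library 6 stood apart from the other treated libraries. The chi-square per degree of freedom between its counts and those of libraries 4 and 5 was 109.8 and 109.3, more than against DMSO libraries 2 and 3 (60.8 and 55.9) and less than against DMSO library 1 (137); libraries 4 and 5 differed from each other by 24.9. The summed level of 12 microglia markers was 185 and 354 CPM in libraries 4 and 5, but 10.6 CPM in library 6 and 8.30 to 14.7 CPM in the DMSO libraries. No marker of this list was at 0 counts in any library. The 14 neuron markers summed to 3553 and 3845 CPM in libraries 4 and 5, against 5696 CPM in library 6 and 4770 to 6098 CPM in the DMSO libraries, and the 12 astrocyte markers summed to 7098 to 8711 CPM over all 6. The 6 nuclear-retained RNAs summed to 2370 and 2330 CPM in libraries 4 and 5, against 1317 CPM in library 6 and 878 to 1400 CPM under DMSO. The 12 oligodendrocyte lineage markers summed to 1100, 1595 and 647 CPM in libraries 4, 5 and 6, and to 823 to 914 CPM under DMSO. The labelled cell type therefore had its markers, in a culture that also held glial transcripts. In bulk RNA of such a culture, fewer cells of a type and less RNA per cell cannot be told apart. The 2 mitochondrial ribosomal RNAs took 14.0 to 23.7% of counts in the DMSO libraries and 26.9 to 33.3% in the forskolin libraries. The part of these differences in the results below was not tested, and members and lists whose calls turn on library 6 are also given without it.

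Of the 31 splicing regulators, all of which passed the low-count filter, 1 had an adjusted p-value under 0.05 in edgeR's quasi-likelihood test (Benjamini-Hochberg over 16233 genes): Hnrnpa0, which was lower. That is 3.23% of the members beside 1.51% of all tested genes (245 of 16233, with 1.34% lower and 0.172% higher). No SR gene passed, although 4 of 11 had an unadjusted p-value under 0.05, beside 22.3% of all tested genes. With DESeq2, 1 member was called higher (Hnrnpa2b1, beside 4.9% of all tested genes) and 1 lower (Hnrnpa0, beside 6.03%), of 10.9% called in all. With limma and library quality weights, which give less weight to libraries that stand apart, 4 members were called higher (Hnrnpa2b1, Hnrnpf, Srsf7 and Srsf10, beside 21% of all tested genes) and 4 lower (Hnrnpa0, Hnrnpul2, Srsf2 and Srsf4, beside 20.9%), of 41.9% in all. Fold changes of the members lay between -0.60 and 0.85 on the log2 scale. The median was 0.15 for SR genes and 0.06 for hnRNP genes, beside 0.02 over all tested genes. Scaling by library size alone shifted the median of all tested genes to -0.09 and those of the SR and hnRNP genes to 0.04 and -0.05, a shift of all genes together that left the families' distance from the median of all genes nearly the same.

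Full separation of the groups of libraries was frequent among SR genes. In 8 of 11 SR genes (72.7%) no forskolin library overlapped a DMSO library in CPM, beside 26.5% of all tested genes. Of these, 5 were higher (45.5%, beside 10.3% of all tested genes) and 3 lower (27.3%, beside 16.2%). In 3 of 20 hnRNP genes (15%) the groups did not overlap, 1 higher and 2 lower. The difference between the families was not tested. Separation was not particular to SR genes among the other lists read below. It was seen in 3 higher and 7 lower of 14 factors of nonsense-mediated decay. Of 12 SR kinases and phosphatases 3 were higher and 3 lower, and of 44 core spliceosome genes 9 and 10. Of 19 SR-related cofactors 3 were higher and 2 lower, and of 39 neuronal and tissue regulators 2 and 9.

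**Figure D1:**
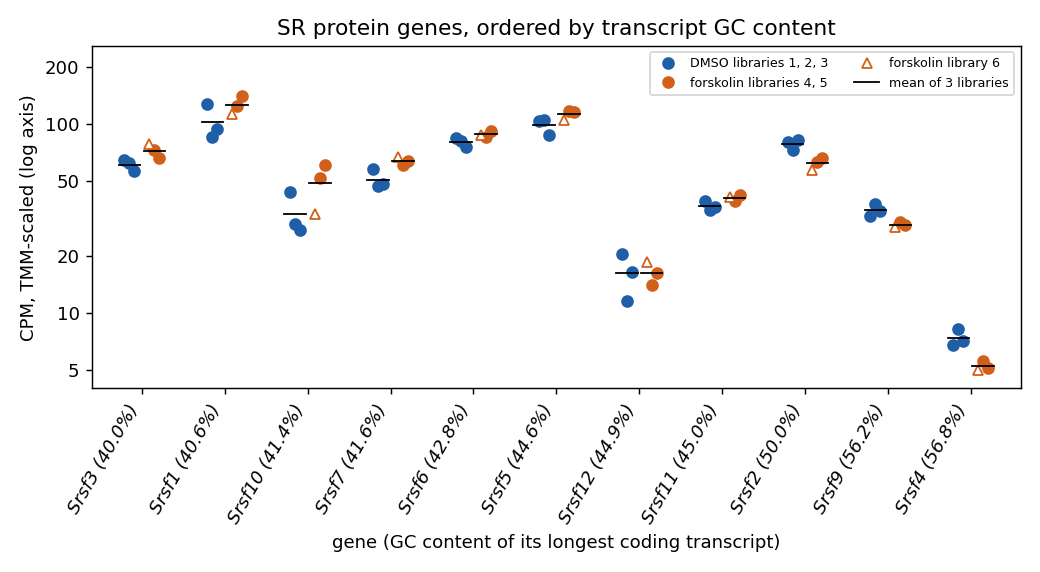
CPM (log axis) of the 11 SR genes in each of the 6 libraries, with genes ordered by the GC content of their longest coding transcript; filled circles are DMSO libraries 1 to 3 and forskolin libraries 4 and 5, open triangles are forskolin library 6, and bars are means of 3 libraries. The 3 genes with the highest GC content, Srsf2, Srsf9 and Srsf4, lie lower in every forskolin library than in any DMSO library.

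The 3 SR genes that lay lower in every forskolin library were Srsf2, Srsf4 and Srsf9. Srsf2, a nuclear speckle protein that promotes exon inclusion, had 73.3, 82.8 and 80.9 CPM in libraries 1, 2 and 3, and 62.8, 66.5 and 57.4 CPM in libraries 4, 5 and 6. Its lowest DMSO library lay above its highest forskolin library by more than the SD of either group (79.0 ± 5.002 and 62.2 ± 4.56 CPM, SD, n = 3). The log2 fold change was -0.34 ± 0.11 (SE), with an edgeR adjusted p of 0.152 on 6 libraries and 0.0485 without library 6.

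Srsf4 is the longest SR protein in its arginine- and serine-rich tail, and was the least abundant SR gene in these cultures. It had 8.28, 7.15 and 6.82 CPM in libraries 1, 2 and 3, and 5.56, 5.14 and 4.99 CPM in libraries 4, 5 and 6, without overlap (log2 fold change -0.50 ± 0.18 (SE), edgeR adjusted p = 0.175). Srsf9, a small SR protein that can act against exon inclusion, was at 37.8, 34.8 and 32.8 CPM under DMSO and at 30.3, 29.5 and 28.7 CPM under forskolin. The forskolin libraries of Srsf9 sat close together just under the lowest control (log2 fold change -0.25 ± 0.10 (SE), edgeR adjusted p = 0.219).

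The 5 SR genes that lay higher in every forskolin library were Srsf3, Srsf5, Srsf6, Srsf7 and Srsf11. Srsf7, which links splicing to mRNA export and to the choice of polyadenylation site, had 47.0, 48.2 and 57.7 CPM in libraries 1, 2 and 3, and 60.7, 64.1 and 67.2 CPM in libraries 4, 5 and 6. The gap between the groups was narrow, since library 3 lay close under library 4, and the log2 fold change was 0.33 ± 0.12 (SE; edgeR adjusted p = 0.180). Srsf3, another export adaptor, had 62.1, 56.8 and 64.4 CPM against 73.1, 66.2 and 78.4 CPM (log2 fold change 0.25 ± 0.11 (SE), edgeR adjusted p = 0.242). Here library 6 was the highest of all, and libraries 3 and 5 nearly met.

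Srsf5, which binds purine-rich exonic enhancers, had 105, 87.9 and 104 CPM in libraries 1, 2 and 3, and 118, 116 and 106 CPM in libraries 4, 5 and 6. Library 6 exceeded library 1 by about 1 CPM only, so that the separation of the groups was within the spread of the controls (log2 fold change 0.20 ± 0.12 (SE), edgeR adjusted p = 0.353). The 4 SR genes Srsf1, Srsf6, Srsf11 and Srsf12 had log2 fold changes from 0.01 to 0.30 and edgeR adjusted p-values from 0.350 to 0.981. Their 95% intervals reached from -0.54 to 0.73, so the data leave room for sizeable changes in either direction, most of all in Srsf12 and Srsf1.

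Srsf10 had the largest positive difference among SR genes and the widest spread. It is an atypical SR protein that turns into a general splicing repressor when it is dephosphorylated. Its level was 29.5, 27.6 and 43.7 CPM in libraries 1, 2 and 3, and 52.2, 61.3 and 33.4 CPM in libraries 4, 5 and 6. Libraries 4 and 5 lay above every control, whereas library 6 lay under library 3. The log2 fold change was 0.54 ± 0.27 (SE; edgeR adjusted p = 0.279) on 6 libraries and 0.74 without library 6 (edgeR adjusted p = 0.0373). After removal of the GC trend it was 0.17, and 0.33 with library 6 also left out (edgeR adjusted p = 0.0556). Libraries 4 and 5 are also the libraries with the high microglia markers, oligodendrocyte lineage markers and nuclear-retained RNAs.

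Among the hnRNPs, Hnrnpa0 fell. Hnrnpa2b1 had the largest positive difference of any member but did not pass with edgeR on 6 libraries. Hnrnpa0 encodes a protein that binds AU-rich elements and stabilises inflammatory and stress mRNAs, and lies at chr13:58125879-58128556 (minus strand, GRCm38). Its level was 79.6, 81.3 and 75.5 CPM in libraries 1, 2 and 3, and 55.8, 48.9 and 50.9 CPM in libraries 4, 5 and 6. All 3 forskolin libraries lay far under the lowest control, and library 6 lay between libraries 5 and 4. The means were 78.8 ± 3.03 and 51.9 ± 3.56 CPM (SD, n = 3), a ratio of 0.659 (log2 fold change -0.60 ± 0.10 (SE), edgeR adjusted p = 0.0453). The call ended when any of libraries 1 to 5 was left out (edgeR adjusted p from 0.137 to 0.342), but each of those fits called 0 of all tested genes. It also ended with RLE factors (0.0599), library size alone (0.0507), no low-count filter (0.0743) and the mitochondrial ribosomal RNAs left out (0.0511). With the GC trend removed the call ended too (0.258), again in a fit that called 0 of all tested genes. It stood without library 6 (0.00746) and with DESeq2 (adjusted p = 6.65e-05). Over all 15 alternatives the fold change kept its sign, from -0.71 to -0.39, and the adjusted p-value ran from 6.65e-05 to 0.342. Hnrnpa0 is the only member annotated as a gene of 1 exon, so that its RNA is itself not spliced.

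**Figure D2:**
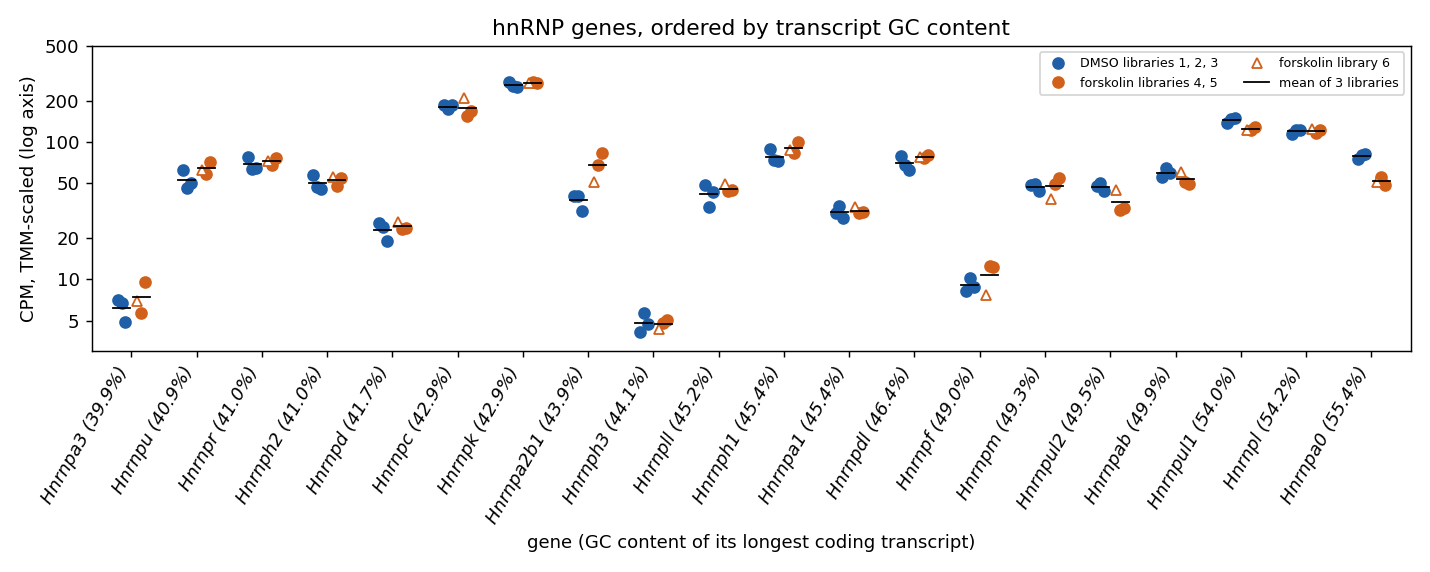
CPM (log axis) of the 20 hnRNP genes in each of the 6 libraries, with genes ordered by the GC content of their longest coding transcript; symbols are DMSO libraries 1 to 3 and forskolin libraries 4 and 5 (circles), forskolin library 6 (open triangles) and the mean of 3 libraries (bars). Hnrnpa0, at the right, lies lower in all 3 forskolin libraries, and Hnrnpa2b1 lies higher in all 3 with library 6 nearest to the controls.

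Hnrnpa2b1 encodes a protein that binds a trafficking element in dendritic mRNAs and also silences exons, and lies at chr6:51460932-51469894 (minus strand, GRCm38). It had 40.4, 31.4 and 40.6 CPM in libraries 1, 2 and 3, and 68.4, 83.6 and 51.2 CPM in libraries 4, 5 and 6. The lowest treated value, that of library 6, was still over the highest control, and library 5 was far over it. The log2 fold change was 0.85 ± 0.20 (SE), a ratio of 1.81, with an edgeR adjusted p of 0.0961. It passed with DESeq2 (adjusted p = 0.00278) and with edgeR without library 6 (log2 fold change 1.004, adjusted p = 0.00600). The order of libraries 5, 4 and 6 in Hnrnpa2b1 is also their order in the microglia and the oligodendrocyte lineage markers, and nuclear-retained RNAs were high in libraries 4 and 5 and at the level of the controls in library 6.

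Hnrnpul2 and Hnrnpul1 encode relatives of hnRNP U with a part in the response to DNA breaks. Hnrnpul2 had 49.9, 43.7 and 47.4 CPM in libraries 1, 2 and 3, and 32.1, 32.9 and 44.6 CPM in libraries 4, 5 and 6. Library 6 lay within the controls while libraries 4 and 5 lay far under them (log2 fold change -0.36, edgeR adjusted p = 0.223). Without library 6 the log2 fold change of Hnrnpul2 was -0.55 (edgeR adjusted p = 0.00966). Hnrnpul1 had 148, 150 and 137 CPM against 122, 128 and 122 CPM, so that its groups did not overlap (log2 fold change -0.22 ± 0.10 (SE), edgeR adjusted p = 0.244).

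The other hnRNPs with the smallest p-values overlapped between the groups. Hnrnpu, a nuclear scaffold protein, had 46.3, 49.8 and 62.1 CPM in libraries 1, 2 and 3, and 58.3, 71.8 and 62.7 CPM after forskolin (log2 fold change 0.29, edgeR adjusted p = 0.297). Hnrnph1, which binds runs of guanines, had 73.8, 72.0 and 88.8 CPM against 83.7, 99.0 and 86.8 CPM (log2 fold change 0.20, edgeR adjusted p = 0.387). In both genes the highest control was library 3, which lay among the forskolin libraries. Hnrnpdl, a relative of the mRNA decay factor hnRNP D, had 67.9, 62.2 and 79.1 CPM against 76.4, 80.2 and 77.3 CPM (log2 fold change 0.16, edgeR adjusted p = 0.447). Hnrnpab had 64.1, 59.3 and 55.1 CPM against 51.4, 49.5 and 60.8 CPM, and only library 6 lay within the controls (log2 fold change -0.14, edgeR adjusted p = 0.506).

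The 3 hnRNP genes with the highest level per kilobase of transcript had overlapping groups and did not pass with edgeR on 6 libraries. Hnrnpk, which binds cytosine-rich RNA, had 257, 251 and 274 CPM in libraries 1, 2 and 3, and 272, 269 and 266 CPM in libraries 4, 5 and 6. The forskolin libraries of Hnrnpk all fell within the range of the controls, and the 95% interval of its log2 fold change was -0.21 to 0.30 (edgeR adjusted p = 0.828). Hnrnpl, which binds CA repeats, had 123, 121 and 115 CPM against 116, 122 and 124 CPM (95% interval -0.22 to 0.25, edgeR adjusted p = 0.948). Hnrnpc, which binds uridine tracts of nascent RNA, had 172, 185 and 185 CPM against 153, 167 and 208 CPM (edgeR adjusted p = 0.895). In Hnrnpc library 6 was the highest of all 6 and libraries 4 and 5 the lowest, so that the mean hid opposite positions of the treated libraries. The 9 hnRNP genes not described one by one, which include Hnrnpa1, Hnrnpd, Hnrnpf and Hnrnpm, had log2 fold changes from -0.03 to 0.26 and edgeR adjusted p-values from 0.525 to 0.967. Their groups overlapped in every case on 6 libraries. Without library 6 the groups of Hnrnpf and Hnrnpm no longer overlapped, with forskolin higher. The 95% intervals of the 9 genes reached from -0.52 to 0.86, so the data leave room for sizeable changes in either direction.

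Levels between genes were compared per kilobase of the longest annotated coding transcript, in the DMSO libraries. Hnrnpk (87.7 CPM per kilobase), Hnrnpc (63.5) and Hnrnpl (44.7) led the hnRNPs, and Srsf5 (63.1), Srsf2 (41.6) and Srsf9 (30.2) led the SR genes. The lowest within each family were Hnrnpa3 (1.20) among the hnRNPs and Srsf4 (3.29) among the SR genes. These levels are rough, because the longest transcript need not be the one expressed: that of Hnrnpr is 21452 bases long, and its level per kilobase (3.20) is correspondingly low.

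The direction of the SR genes followed the GC content of their transcripts. The 3 SR genes that were lower in every forskolin library had the 3 highest GC contents of the family, from 50.0 to 56.8%. The 5 that were higher had 39.99 to 45.0%, and the 3 that overlapped had 40.6 to 44.9%. The same slope ran through the whole table: the median log2 fold change was 0.50 in the lowest and -0.49 in the highest of 10 equal bins of tested genes by GC content. Members were lower in GC than most genes, with a median of 44.6% for SR and 45.3% for hnRNP genes beside 49.9% for the tested genes that have a value. Of the 31 members, 3 SR and 4 hnRNP genes fall in the lowest bin and 0 in the highest.

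**Figure D3:**
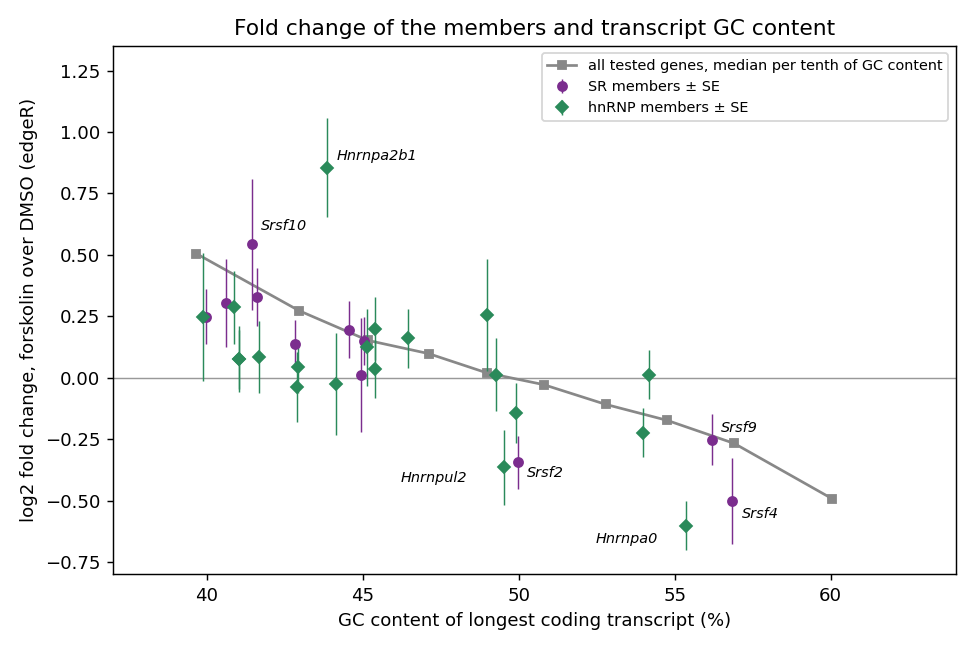
Log2 fold change (edgeR, forskolin over DMSO, bars are SE) of the 11 SR and 20 hnRNP genes against the GC content of their longest coding transcript, with the median of all tested genes in each of 10 equal bins of GC content as a grey line. Most members lie near or under the line, Hnrnpa2b1 lies above it, and Hnrnpa0 lies under it.

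With each library's trend on GC content removed, the median log2 fold change was -0.12 for SR and -0.13 for hnRNP genes, and it was 0.01 over all tested genes. Only 2 of 11 SR genes and 6 of 20 hnRNP genes then had a positive value, against 8 and 14 before. Of the 5 SR genes higher in every forskolin library, 4 turned sign, Srsf3 (-0.22), Srsf6 (-0.15), Srsf7 (-0.03) and Srsf11 (-0.02), and Srsf5 was left at 0.0039. The signs of Srsf1 (-0.12), Hnrnpu (-0.12) and Hnrnpk (-0.24) were among the others that turned. Srsf9 moved to -0.0012, whereas Srsf2 stayed at -0.33. Others kept their sign and came nearer to 0: Hnrnpa0 went from -0.60 to -0.39 (edgeR adjusted p = 0.258), Hnrnpa2b1 from 0.85 to 0.63, Srsf10 from 0.54 to 0.17 and Srsf4 from -0.50 to -0.22. No member passed in this fit with edgeR, where 6 had an unadjusted p-value under 0.05, and 0 of the 16233 genes passed, with 1841 at an unadjusted p-value under 0.05. The part of GC content in the fold changes of the members was not tested beyond this correction.

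Without library 6, edgeR called 5 of 31 members (16.1%), beside 33.6% of all genes tested in that fit. Hnrnpa2b1 and Srsf10 were higher (2 members, beside 16.5% of genes), and Hnrnpa0, Hnrnpul2 and Srsf2 were lower (3 members, beside 17.1%). With library 6 left out and the GC trend removed as well, a setting added after the data had been seen, 6 members passed, beside 31.8% of all genes (15.9% in each direction). Hnrnpa2b1 was then the only member higher (log2 fold change 0.77, edgeR adjusted p = 0.00776). Hnrnpa0 (-0.42), Hnrnpul2 (-0.53), Hnrnpc (-0.50), Hnrnph2 (-0.44) and Hnrnpr (-0.41) were lower, with edgeR adjusted p-values from 0.00806 to 0.0145. Without library 6 but with the GC trend kept, Hnrnph2, Hnrnpr and Hnrnpc had log2 fold changes of 0.0155, 0.055 and -0.19. Their edgeR adjusted p-values were then 0.939, 0.744 and 0.143, so their calls came only with the GC trend removed. Hnrnpa0, Hnrnpa2b1 and Hnrnpul2 were thus called in both fits without library 6, each in the same direction.

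**Figure D4:**
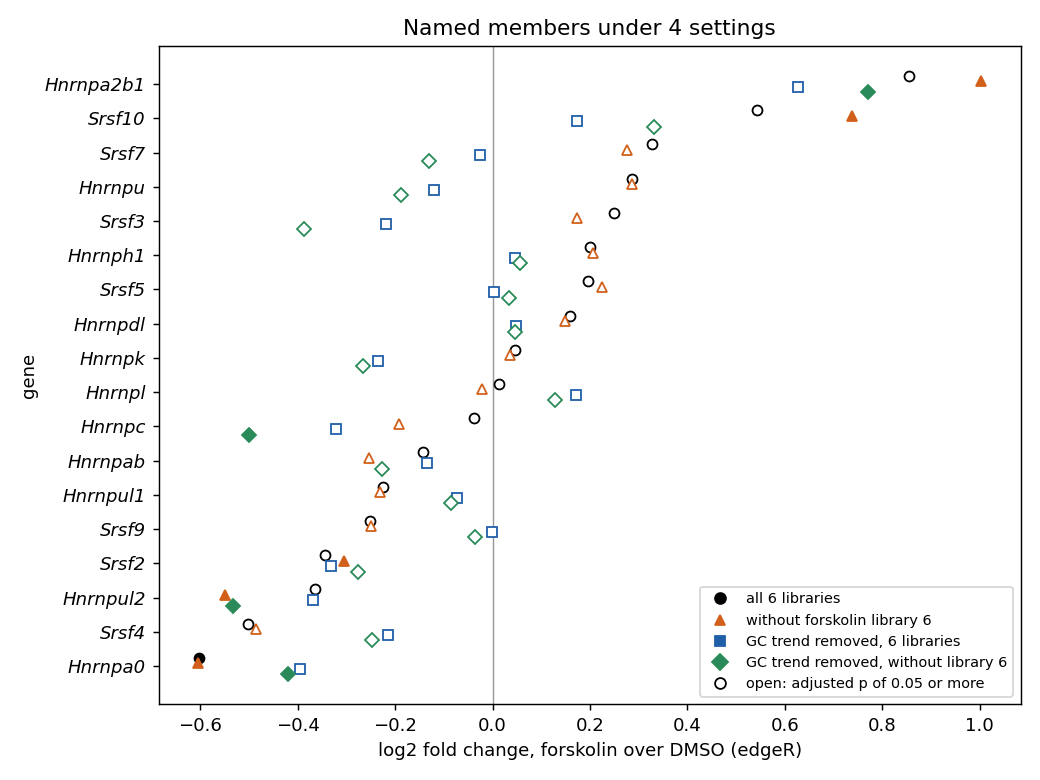
Log2 fold change (edgeR, forskolin over DMSO) of the 18 named members under 4 settings: all 6 libraries, without forskolin library 6, with the GC trend removed, and with both; filled symbols have an adjusted p-value under 0.05. Hnrnpa0 stays under 0 and Hnrnpa2b1 over 0 in all 4 settings, whereas Srsf3, Srsf7, Hnrnpu and Hnrnpk cross 0 when the GC trend is removed.

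The promoters of members were read because cyclic AMP acts on transcription through CREB, a factor that binds the cyclic AMP response element (CRE). Windows of 250 bases before to 50 bases after the start were found in RefSeq (GRCm38.p6) for all 11 SR genes and 18 of 20 hnRNP genes. None of these windows held the full CRE, TGACGTCA, which 3.46% of the 11439 tested genes with a window have. The windows of Fos and Nr4a1 did not hold it either. The shorter CRE core, TGACG on either strand (CGTCA on the other), was present in 7 of 11 SR and 11 of 18 hnRNP genes, beside 34.1% of those tested genes. A match of these letters is a description and not a binding site. The stretches around the core, all upstream of the start, are printed for Hnrnpa0, the member that fell, for Hnrnpa2b1 and Srsf10, the members with the largest positive differences of their families, and for Srsf3, whose window has the most matches (3, of which 2 are shown). Letters are 5′ to 3′ on the strand of the gene, and capitals mark the core on either strand.
Hnrnpa0: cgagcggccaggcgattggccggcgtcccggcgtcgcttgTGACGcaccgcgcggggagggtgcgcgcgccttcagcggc
Hnrnpa2b1: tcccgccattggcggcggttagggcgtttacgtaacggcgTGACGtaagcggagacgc
Srsf10: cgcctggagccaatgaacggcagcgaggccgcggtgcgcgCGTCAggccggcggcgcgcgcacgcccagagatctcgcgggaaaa
Srsf3: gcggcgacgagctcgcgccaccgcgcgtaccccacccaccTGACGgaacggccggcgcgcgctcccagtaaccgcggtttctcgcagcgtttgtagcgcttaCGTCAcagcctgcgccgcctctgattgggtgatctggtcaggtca
They lie at chr13:58128557-58128636 (minus strand), chr6:51469895-51469952 (minus strand), chr4:135855933-135856017 (plus strand) and chr17:29032477-29032623 (plus strand) of GRCm38.p6, upstream of the RefSeq starts used for the windows. GENCODE M21 starts Srsf10 further upstream, at base 135855747, so that its stretch lies within the gene in that annotation. The core begins 40 bases before the start in Hnrnpa0 and 18 bases before it in Hnrnpa2b1. Any link between the core and the direction of change was not tested.

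Several members share sequence with other genes, most of them annotated as processed pseudogenes. Of the 31-base words of the longest coding transcript, 50.2% of those of Hnrnpf, 48.3% of Hnrnpa1, 39.6% of Hnrnpk, 37.6% of Srsf3, 36.0% of Srsf5 and 28.9% of Hnrnpa3 also occur in transcripts of other genes in GENCODE M21. How reads of such stretches were divided is not given in the sources used here, so the levels of these genes are uncertain. For Srsf3 and Hnrnpk, the sharing genes found in the count table held few counts: Gm12355, annotated as protein-coding, had 5 to 20 counts per library beside at least 1731 for Srsf3, and Gm7964, which shares with Hnrnpk, had 0. Hnrnpa0, Srsf1, Srsf2, Srsf4, Srsf6, Srsf9 and Hnrnpu share none, and Hnrnpa2b1 shares 12.7%. For Hnrnpm the shared 29.2% are with March2, a neighbour on the same strand that its longest transcript overlaps. March2 held 1398 to 2075 counts per library, so the division of reads between the pair bears on the level of Hnrnpm.

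Transcripts that are not translated in full are annotated for many members. In GENCODE M21, 9 of 11 SR genes (81.8%) and 10 of 20 hnRNP genes (50.0%) have at least 1 transcript marked as a target of nonsense-mediated decay, beside 27.6% of protein-coding genes with a summed count of at least 100. A retained-intron transcript is listed for 8 SR (72.7%) and 14 hnRNP genes (70.0%), beside 57.0% of those protein-coding genes. Hnrnpk alone has 34 annotated transcripts, 13 of them with a retained intron. The counts analysed sum all transcripts of a gene, so a change in isoform was not measurable here.

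The partners of SR proteins and hnRNPs were read from 5 further lists. Of 12 kinases and phosphatases of SR proteins, 0 passed with edgeR on 6 libraries, 4 had an unadjusted p-value under 0.05 (beside 22.3% of all tested genes), and 2 passed with DESeq2, both higher (beside 4.9%). With no low-count filter, edgeR on 6 libraries called 1 of the 12 higher, beside 46 of 26663 genes. Without library 6 edgeR called 3 higher and 1 lower, beside 16.5% and 17.1% of all genes in that fit. Clk1, a nuclear kinase of SR proteins, had 15.2, 13.4 and 21.2 CPM in libraries 1, 2 and 3, and 40.9, 38.6 and 29.7 CPM in libraries 4, 5 and 6, and so lay well above every control in all 3 (log2 fold change 1.13 ± 0.21 (SE), edgeR adjusted p = 0.0613, and 0.00697 without library 6). Its relative Clk4 had 14.4, 11.8 and 18.6 CPM against 26.1, 22.8 and 21.8 CPM (log2 fold change 0.66, edgeR adjusted p = 0.139, and 0.0391 without library 6). Both are AT-rich (40.9 and 43.3% GC), and with the GC trend removed their log2 fold changes were 0.74 and 0.41 (edgeR adjusted p = 0.206 and 0.402).

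Of 39 tested neuronal and tissue splicing regulators, 4 fell and 0 rose with edgeR on 6 libraries, beside 1.34% and 0.172% of all tested genes. Without library 6, 9 were lower and 5 higher, beside 17.1% and 16.5%. The 5 higher were Ptbp1, Ptbp3, Mbnl1, Rbm25 and Rbm39, named after their values were seen, with edgeR adjusted p-values from 0.00488 to 0.0375. In all 5, library 6 lay below libraries 4 and 5 and within or under the range of the controls. Celf5, of a family that binds GU-rich RNA, fell from 48.3, 51.9 and 53.6 CPM to 26.1, 27.3 and 29.9 CPM after forskolin (log2 fold change -0.88, edgeR adjusted p = 0.0277). Celf3 fell by 0.79, Rbfox3, which is also a neuron marker, by 0.87, and Srrm3, a microexon activator, by 0.91 on the log2 scale (edgeR adjusted p = 0.0382, 0.0392 and 0.0405). In all 4 library 6 was the forskolin library nearest to the controls, as it was in the summed neuron markers. Their GC contents were 55.2 to 61.8%. Without library 6 all 4 passed. With any of libraries 1 to 5 left out, 0 of the list passed, in fits that called 0 of all tested genes. With RLE factors 1 of the list was called lower, beside 113 of 16233 genes, and with library size alone 4 were, beside 295. With the GC trend removed on 6 libraries, a fit in which 0 of 16233 genes passed, their log2 fold changes were -0.68 (Celf5), -0.43 (Celf3), -0.46 (Rbfox3) and -0.24 (Srrm3). With that trend removed and library 6 left out, 15 of the 39 were called lower and 5 higher, beside 15.9% of all genes in each direction.

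**Figure D5:**
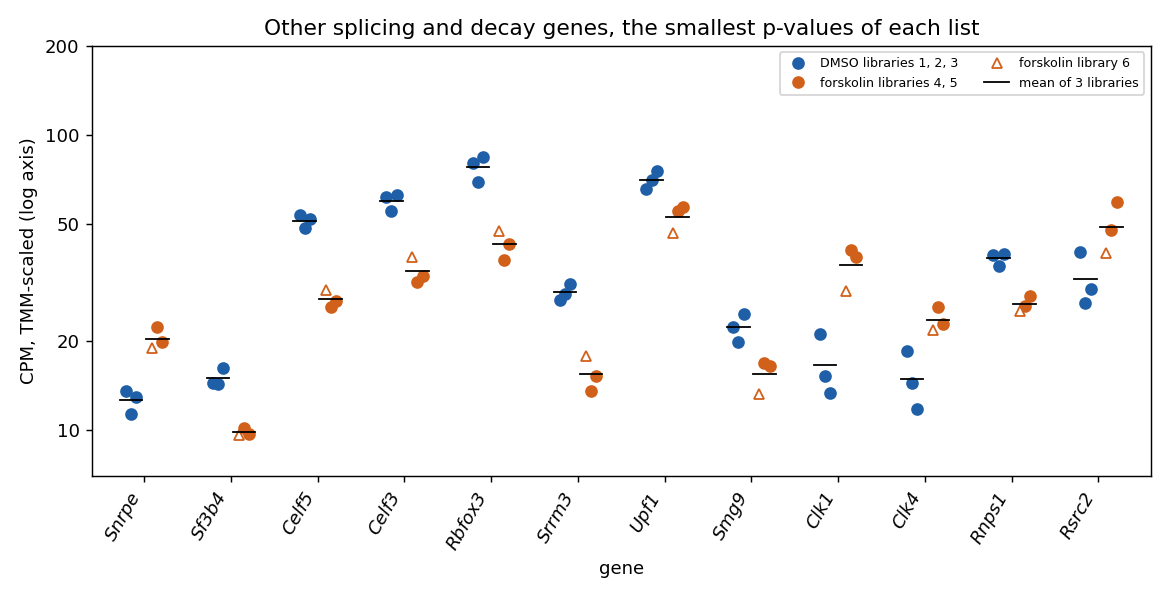
CPM (log axis) in each library of 12 genes from 5 lists of other splicing and decay genes, the 4 called in the list of neuronal and tissue regulators and the 2 with the smallest p-values in each other list; circles are DMSO libraries 1 to 3 and forskolin libraries 4 and 5, open triangles forskolin library 6, and bars means of 3 libraries. Clk1 lies higher and Celf5, Celf3, Rbfox3 and Srrm3 lie lower in all 3 forskolin libraries.

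The general machinery was read in the same way. Of 44 tested core spliceosome genes, 19 tested SR-related cofactors and 14 factors of nonsense-mediated decay, 0 passed with edgeR on 6 libraries. Their counts at an unadjusted p-value under 0.05 were 13, 6 and 6, beside 22.3% of all tested genes, and DESeq2 called 8, 1 and 3, beside 10.9%. Without library 6 edgeR called 10, 7 and 7, beside 33.6% of all genes in that fit. Scaling by library size alone on 6 libraries gave 1 SR-related cofactor called lower, beside 295 of 16233 genes. The median log2 fold changes of the 3 lists in the main fit were -0.07, 0.17 and -0.16. Snrpe, a core Sm protein, had 11.4, 12.995 and 13.5 CPM in libraries 1, 2 and 3, and 22.3, 19.9 and 18.9 CPM after forskolin (log2 fold change 0.69, edgeR adjusted p = 0.0711). Sf3b4, of the branch site complex, lay on the other side at -0.61 (edgeR adjusted p = 0.0842). Rnps1, which joins splicing to the exon junction complex, was at -0.52 (edgeR adjusted p = 0.0726), and Rsrc2 at 0.59 with overlapping groups. Upf1, the central helicase of nonsense-mediated decay, was at -0.41 (edgeR adjusted p = 0.136) and Smg9 at -0.52 (0.140). Without library 6 the edgeR adjusted p-values were 0.0105 for Snrpe, 0.0160 for Sf3b4, 0.0137 for Rnps1, 0.0315 for Rsrc2, 0.0344 for Upf1 and 0.0427 for Smg9. With the GC trend removed on 6 libraries the log2 fold changes were 0.35 for Snrpe, -0.36 for Sf3b4, -0.44 for Rnps1, 0.01 for Rsrc2, -0.06 for Upf1 and -0.01 for Smg9.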

How the data were processed

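The values analysed are the unnormalised read counts that the authors deposited, a whole number for each gene symbol in each library. Salmon, DESeq and GRCm38 are named in the submitters' processing notes without role or version; strand setting and annotation are not given in the sources used here. A second deposited table, of the authors' fold changes, lists no member and was not used. Members and gene lists were chosen with earlier results of these data known.

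Counts were filtered with filterByExpr (minimum count 10, minimum total 15), scaled by TMM and tested with edgeR 4.0.16 (R 4.3.3) by glmQLFit and glmQLFTest on 6 libraries, adjusted by Benjamini-Hochberg over 16233 genes, threshold 0.05. SE is the absolute log2 fold change over the square root of F. CPM are TMM-scaled. Tests were tried on simulated data first. Total counts were 28342764 to 47548379 per library. No libraries were duplicates (chi-square per degree of freedom at least 22.7). Transcript length, GC content and shared words came from GENCODE M21 (GRCm38), matched by symbol for all 31 members, with 15769 tested genes having a GC value. The GC trend was a lowess curve per library (span 0.3), entered as an offset. Other alternatives were DESeq2 1.42.0, limma 3.58.1 with library quality weights, RLE factors, library size alone, other count filters, omission of the mitochondrial ribosomal RNAs and omission of each library. Library numbers are not shared between groups, so no pairing was fitted.

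Named members were those with an adjusted p-value under 0.05, the 6 SR and 8 hnRNP genes with the smallest p-values, and the 3 of each family highest per kilobase. In the 5 other lists, up to 4 called genes were named, or else the 2 with the smallest p-values. The CRE search covered every named window on both strands; the stretches printed were chosen after their values were seen.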

Additional observations from a re-analysis of the deposited data

How the results depend on the processing

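The number of members called was 1 with all 6 libraries. It was 2 with DESeq2, 8 with library quality weights, 6 with the GC trend removed and library 6 left out, and 0 with RLE factors, library size alone, no low-count filter, the GC trend removed or the mitochondrial ribosomal RNAs left out; in those 5 settings 5 to 7 members had an unadjusted p-value under 0.05. Leaving out a library gave 0 to 5 members, 5 without library 6 and 0 without any other. Over all tested genes the count of 245 of 16233 became 1775 with DESeq2, 6795 with quality weights, 137 with RLE factors and 326 with library size alone. It was 212 of 26663 genes with no low-count filter and 207 of 16138 with the mitochondrial ribosomal RNAs left out. With the GC trend removed it was 0 (1841 at an unadjusted p-value under 0.05), and 5392 with library 6 left out as well. Leaving out a library gave 5698 genes without library 6 and 0 of all tested genes without any other. The median log2 fold change of SR genes (0.15) moved to 0.0444 with library size alone, -0.12 with the GC trend removed and -0.13 without library 6 as well; that of hnRNP genes (0.06) moved to -0.0459, -0.13 and -0.20. Of the named members not called with 6 libraries, the sign turned with the GC trend removed, with and without library 6, in Hnrnpk (-0.24 and -0.27), Hnrnpu (-0.12 and -0.19), Srsf3 (-0.22 and -0.39) and Srsf7 (-0.0263 and -0.13). It turned with library size alone in Hnrnpk (-0.0608) and Hnrnpl (-0.0955), a scaling that moved the median of all tested genes from 0.02 to -0.09, and in Hnrnpl with quality weights (-0.0018) and without mitochondrial ribosomal RNA (-0.0040). Leaving out a library gave -0.0285 to 0.0545 for Hnrnpl and -0.19 to 0.0517 for Hnrnpc. The cause of these moves was not tested. The Hnrnpa0 call ended with RLE factors (adjusted p = 0.0599), library size alone (0.0507), no low-count filter (0.0743), without mitochondrial ribosomal RNA (0.0511) and with the GC trend removed (0.258). No paired analysis was possible because the library numbers are not shared between the groups. What depth limits in these genes was not tested.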
